A study of Homo sapiens with 29 samples.

Results

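Histone methyltransferases and demethylases are the enzymes that write and erase methyl groups on histone tails. The set described here comprised the protein-coding genes named KMT2A to KMT2E, SETD, SETDB, NSD, EZH, SUV39H, EHMT, DOT1L, ASH1L, PRDM, PRMT and KDM, with EED and SUZ12, the other core subunits of Polycomb repressive complex 2 (PRC2). Members were chosen by gene symbol and not by their values. The annotation used here held 72 such genes among the 35579 genes summed from the transcript table. The PRMT genes encode arginine methyltransferases and were kept because the naming rule holds them. NSDHL, a sterol enzyme, was not counted. One KDM5 gene is Y-linked and its level is not given, which left 71 members. Of these, 60 averaged 1 TPM or more (TPM is the length-scaled share of a library's transcripts) across the 29 libraries and entered the tests, in which 14111 genes were compared.

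The libraries were poly(A) RNA-seq of PC9 cells, an EGFR-mutant human lung adenocarcinoma line, with 1 library for each line and treatment. The parental line (PAR) carried its endogenous AXL, a receptor tyrosine kinase. The knockout line (KO) had lost AXL to CRISPR/Cas9. The other 8 lines were KO cells transduced with AXL and sorted on GFP, and carried the wild-type receptor (WT), a kinase-dead receptor (KD) or a tyrosine-to-phenylalanine change at a single site (Y634F, Y643F, Y698F, Y726F, Y750F or Y821F). These 8 lines were sorted populations, and by the study's account only a minority of the transduced cells express AXL. Cells were seeded at 300000 per dish and left untreated (10 libraries), given 1 μM erlotinib, an EGFR inhibitor, for 24 h (10 libraries), or given erlotinib with 300 ng/mL AF154, an antibody that activates AXL, for 24 h (9 libraries). The KO line with AF154 was not analysed here. Lines took the place of replicates, so each p-value measures the spread of a response between lines.

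Methyl groups on histones are read according to their position. Methylation of H3K4, made by the KMT2 and SETD1 enzymes, marks promoters and enhancers, and H3K36 methylation, made by SETD2 and the NSD enzymes, covers gene bodies. H3K9 methylation (the SUV39H and EHMT enzymes and SETDB1) and H3K27 methylation (PRC2) accompany silent chromatin. The KDM enzymes remove these groups, with KDM5 acting on H3K4, KDM4 and KDM3 on H3K9, KDM6 on H3K27 and KDM2 on H3K36.

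The KO libraries held 79.3 to 92.4 TPM of AXL RNA and the other libraries held 217 to 852 TPM. All 5 epithelial markers were expressed (summed level 7188 to 9624 TPM), the blood marker PTPRC had a mean of 0.381 TPM and CD3E was listed at 0 in every library. Of the other markers, COL1A1 reached 70.9 TPM and PECAM1 9.60 TPM, while COL3A1 reached 0.062 TPM. Some of these markers moved with erlotinib. COL1A1 was 1.03 and CDH5 0.53 higher and PECAM1 1.27 lower on the log2(TPM + 1) scale, all past the threshold. The epithelial KRT7 and CDH1 were 0.88 and 0.67 higher, and KRT18, EPCAM and KRT8 0.64, 0.44 and 0.31 lower, also past the threshold. The fibroblast markers summed to 15.3 to 36.2 TPM in untreated and 37.0 to 62.2 TPM in erlotinib libraries, and the endothelial markers to 5.42 to 10.2 and 1.98 to 6.65 TPM. The part of these shifts in the members' changes was not tested. TPM values do not keep sequencing depth, so the counting error behind each level is unknown, and a level is a share of the RNA in its library.

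Erlotinib was compared with no treatment within each of the 10 lines. Of the 60 members tested, 22 rose and 23 fell at an adjusted p under 0.05. The treatment moved most of the transcriptome, since 35.5% of all genes tested rose, 36.3% fell and 71.8% passed in either direction. The members' 75% was thus close to the background. The median change of the members was 0.02 and that of all genes 0.01 on the log2(TPM + 1) scale, with median absolute changes of 0.30 and 0.37. Untreated and erlotinib libraries did not overlap for 7 members that were higher (12.6% of all genes) and 8 that were lower (17.2% of all genes).

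Of 19 KDM genes described, 16 were at 1 TPM or more, 12 of them rose, 1 fell and 3 did not pass. Among the 28 lysine methyltransferases and PRC2 subunits tested, 7 rose and 14 fell. Among 7 PRMT genes, 1 rose and 5 fell. Whether these families differ from each other or from all genes tested, of which 35.5% rose and 36.3% fell, was not tested.

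**Figure D1:**
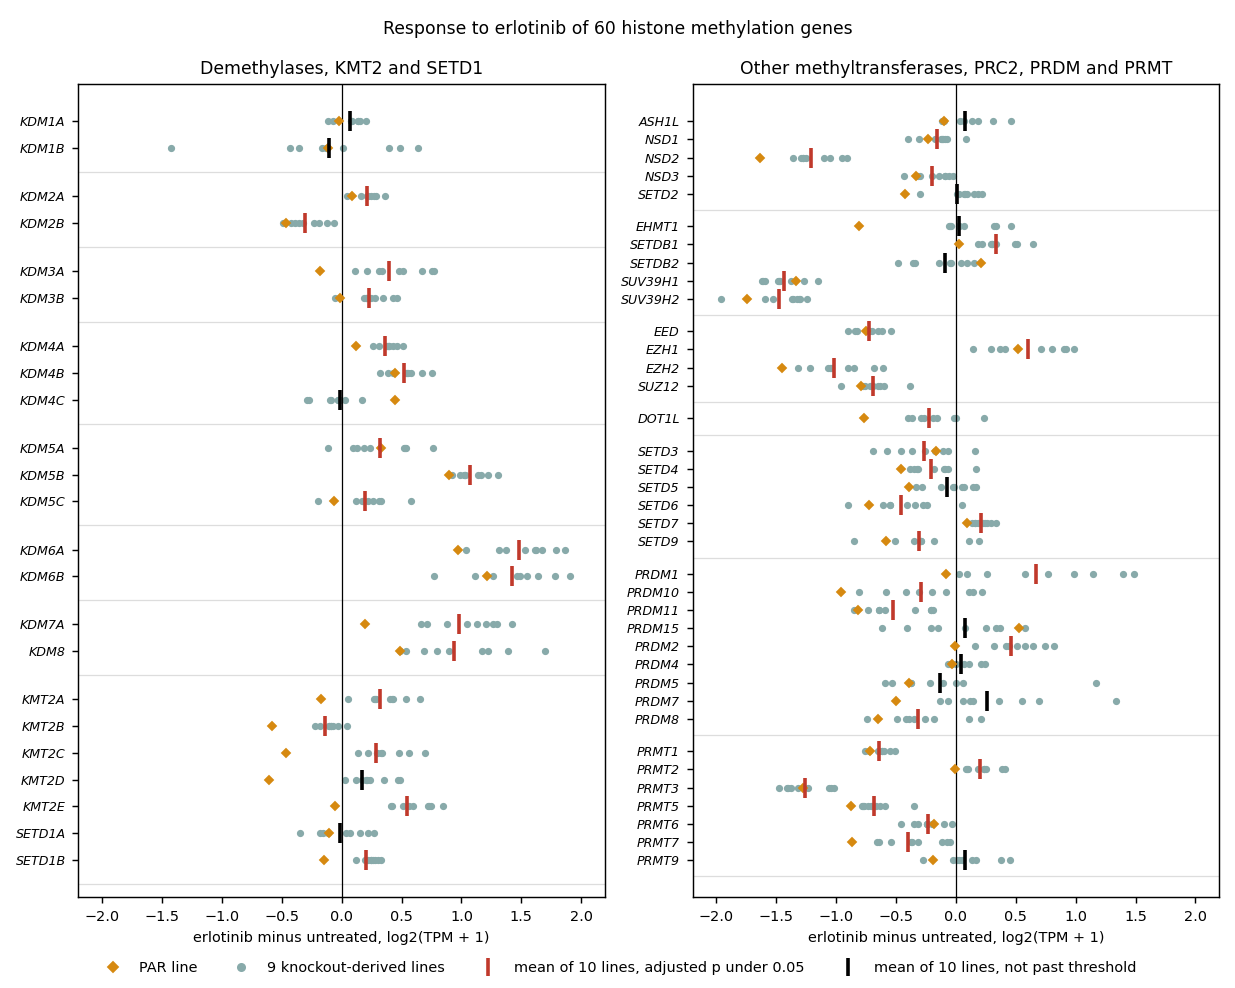
Difference between the erlotinib and the untreated library of each line on the log2(TPM + 1) scale, for the 60 members grouped by family; points are lines, the diamond is PAR and the bar is the mean of 10 lines. KDM6A, KDM6B and KDM5B lie to the right in every line and SUV39H1, SUV39H2, NSD2, PRMT3 and EZH2 to the left in every line.

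The H3K27 demethylases showed the largest rises. KDM6A (UTX), which sits in the KMT2C and KMT2D complexes, ranged from 7.21 to 10.2 TPM in untreated cells (median 8.67) and from 15.6 to 30.9 TPM with erlotinib (median 26.8). The groups did not overlap, and the lowest erlotinib library was PAR. The rise was 1.48 ± 0.09 (SE, 10 lines) on the log2(TPM + 1) scale, or 2.79-fold (adjusted p = 3.34e-09), and was seen in 10 of 10 lines. KDM6B (JMJD3), its paralogue and a gene known to be induced by stress and inflammatory signals, ranged from 10.4 to 24.0 TPM (median 16.6) without drug and from 36.6 to 55.8 TPM (median 44.0) with it. These groups did not overlap either, and the change was 1.42 ± 0.09, or 2.67-fold (adjusted p = 1.03e-08). As both genes rose, the KDM6B share of their summed TPM had a median of 65.6% in untreated and 63.5% in erlotinib libraries, with overlapping ranges.

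All 3 KDM5 genes described rose. KDM5B, an H3K4 demethylase studied in slow-cycling and drug-tolerant cells, ranged from 17.8 to 24.9 TPM (median 21.2) untreated and from 41.7 to 52.0 TPM (median 45.5) with erlotinib, a 2.10-fold rise (log2 change 1.07 ± 0.05, adjusted p = 1.25e-10). Its paralogues moved less. KDM5A rose by 0.32 ± 0.08 from a median of 28.0 to 37.5 TPM (9 of 10 lines), and KDM5C, the most abundant of the 3, by 0.19 ± 0.06 from a median of 83.3 to 96.3 TPM (8 of 10 lines), both with overlapping groups. The KDM5B share of the summed TPM of the 3 genes therefore went from a range of 13.0% to 19.8% to one of 23.1% to 29.2%, without overlap. Transcripts annotated as protein coding held 39.5% of KDM5B TPM untreated and 48.1% with erlotinib. For KDM5A they held 55.5% and 52.9%, and for KDM5C 73.6% and 73.0%. The KDM5B share over coding transcripts alone was not computed.

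**Figure D2:**
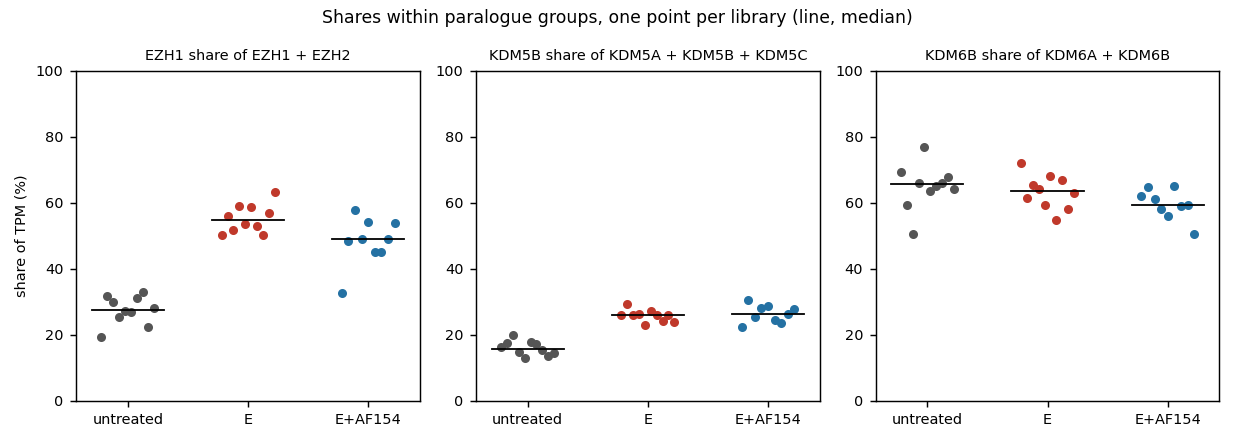
Share of TPM taken by EZH1, KDM5B and KDM6B within their paralogue groups, 1 point per library with the median as a line, for untreated, erlotinib (E) and erlotinib with AF154. The erlotinib points lie above all untreated points for EZH1 and KDM5B and overlap them for KDM6B.

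The H3K9 and H3K36 demethylases split. KDM4B rose from a median of 9.92 to 14.5 TPM (0.52 ± 0.05, adjusted p = 8.77e-07) without overlap of the groups. KDM4A rose in 10 of 10 lines by 0.37 ± 0.04 (adjusted p = 1.64e-06), from a median of 40.4 to 52.3 TPM, and the groups overlapped because the PAR line was low in both. KDM4C changed by -0.02 ± 0.07 (adjusted p = 0.84). KDM3A and KDM3B, which remove smaller H3K9 methyl marks, rose by 0.40 and 0.23. Of the H3K36 demethylases, KDM2A rose by 0.21 ± 0.03 in 10 of 10 lines while KDM2B fell by 0.31 ± 0.05 in 10 of 10 lines.

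KDM7A, a demethylase of H3K9 and H3K27, was near the filter of 1 TPM, with 0.32 to 1.32 TPM untreated and 1.65 to 2.73 TPM with erlotinib (log2 change 0.98 ± 0.13, adjusted p = 1.24e-05). Its mean was 0.58 TPM untreated and 2.08 TPM with erlotinib. It thus passed the filter only through the treated libraries, and no conclusion is drawn from its call. The counts of members and KDM genes that rose, and of those without overlap, include it. KDM8 rose from a median of 5.27 to 10.7 TPM (0.94 ± 0.12, adjusted p = 8.97e-06). In KDM8 31.9% of the TPM came from transcripts annotated as protein coding, and counted over those alone the rise was 0.36 (adjusted p = 0.0024). KDM1A (LSD1), the H3K4 demethylase of repressor complexes, ranged from 57.3 to 105 TPM untreated and from 61.9 to 103 TPM with erlotinib. Its change of 0.07 ± 0.04 did not pass (adjusted p = 0.11), and was 0.11 and 0.16 with adjusted p of 0.016 and 0.00069 after median centring and quantile normalization. Without the Y821F line the KDM1A change was 0.09 (adjusted p = 0.043). Over protein-coding transcripts alone it was -0.000276 (adjusted p = 0.995).

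The H3K9 methyltransferases SUV39H1 and SUV39H2, which trimethylate heterochromatin, showed the largest falls. SUV39H1 ranged from 8.32 to 12.9 TPM untreated (median 11.8) and from 2.69 to 4.63 TPM with erlotinib (median 3.57). PAR was lowest in both groups, which did not overlap, and the gene fell by 1.44 ± 0.06 on the log2 scale (adjusted p = 2.06e-10). SUV39H2 ranged from 25.5 to 34.0 TPM (median 29.5) untreated and from 7.76 to 11.6 TPM (median 10.4) with erlotinib. It fell by 1.48 ± 0.07 (adjusted p = 3.95e-10) in 10 of 10 lines. About as much of its TPM came from a transcript annotated for nonsense-mediated decay (43.1%) as from the coding ones (56.9%), and the fall was of the same sign over coding transcripts alone.

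Of the other enzymes of H3K9, SETDB1 rose by 0.33 ± 0.06 in 10 of 10 lines (adjusted p = 0.00014), from a range of 18.8 to 22.4 TPM to one of 22.8 to 30.4 TPM. EHMT1 (GLP) had a median of 55.4 TPM untreated and 59.8 TPM with erlotinib and a change of 0.03 ± 0.09 (adjusted p = 0.81). Its partner EHMT2 (G9a) had a mean of 0.88 TPM and was not tested. EHMT2 lies in the major histocompatibility region of chromosome 6, where 54.5% of the 99 other protein-coding genes starting within 1 Mb were under 1 TPM, against 34.6% of all protein-coding genes. Its 5 protein-coding transcripts in the table summed to at most 0.17 TPM. Transcripts assigned to alternative copies of this region were not analysed here.

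In PRC2, which trimethylates H3K27, the catalytic subunit EZH2 and the scaffolds EED and SUZ12 fell while the second catalytic subunit, EZH1, rose. EZH2 went from 26.4 to 39.7 TPM (median 29.5) untreated to 11.4 to 18.9 TPM (median 14.0) with erlotinib. These groups did not overlap, and the fall was 1.02 ± 0.08 on the log2 scale (adjusted p = 4.66e-08). EZH1, the paralogue found mainly in non-dividing cells, rose in 10 of 10 lines from a median of 11.3 to 18.1 TPM (0.61 ± 0.09, adjusted p = 2.84e-05), with a slight overlap of the groups. EZH1 thus went from 19.2% to 32.9% of the summed EZH1 and EZH2 TPM in untreated libraries to 50.1% to 63.4% in erlotinib libraries, without overlap. Transcripts annotated as protein coding held 44.8% of EZH1 TPM untreated and 50.6% with erlotinib. For EZH2 they held 79.4% and 70.7%. The EZH1 share over coding transcripts alone was not computed. EED fell by 0.73 ± 0.04 (adjusted p = 2.79e-09) and SUZ12 by 0.70 ± 0.05 (adjusted p = 4.44e-08). The SUZ12 libraries ranged from 21.3 to 26.0 TPM untreated and from 12.9 to 16.9 TPM with erlotinib. Of 7 PRC2 partners tested, 4 fell and 1 rose (36.3% and 35.5% of all genes tested). PHF19, an accessory subunit, fell by 1.32, RBBP7 by 0.73, and JARID2 rose by 0.87.

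**Figure D3:**
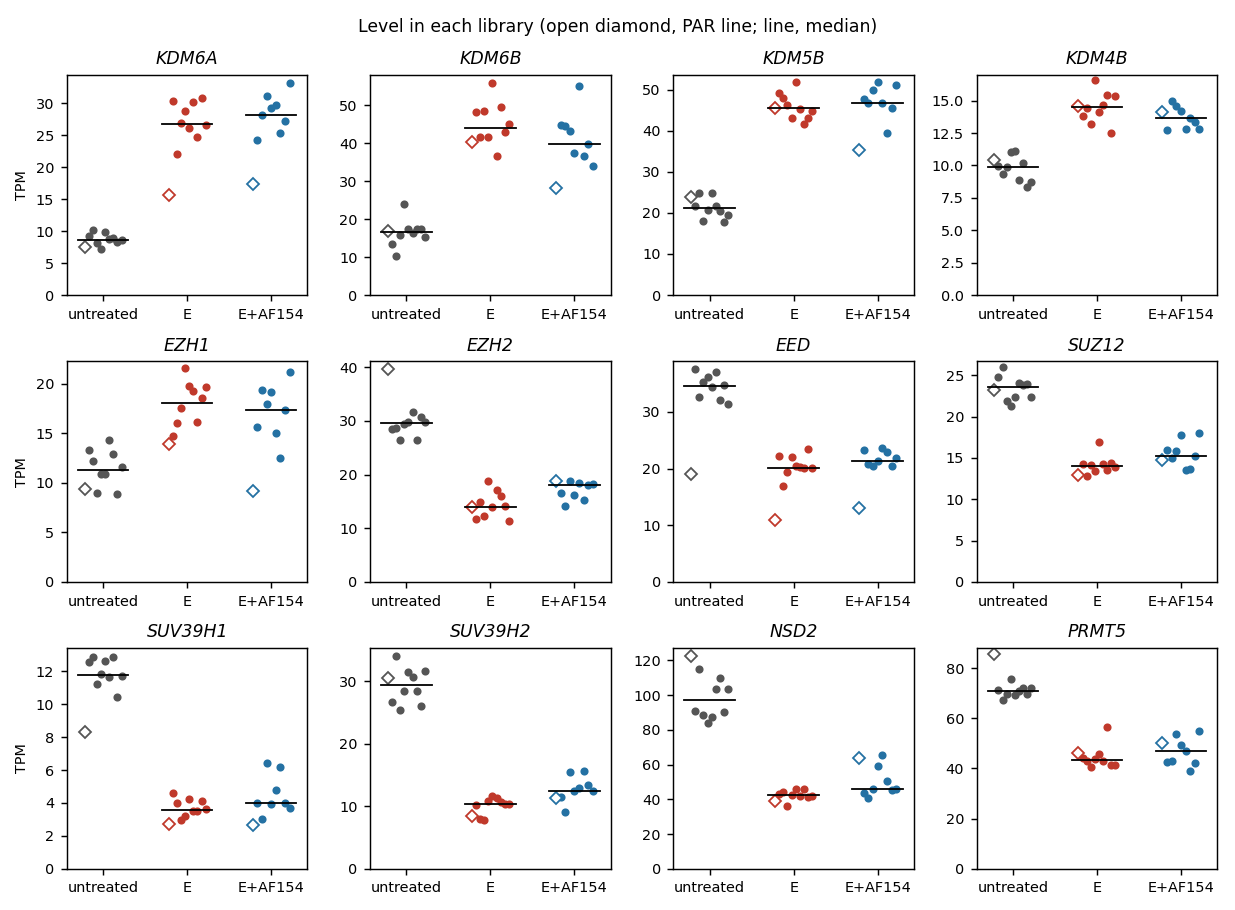
TPM of 12 members in each library, untreated, with erlotinib (E) and with erlotinib and AF154; the open diamond is PAR and the horizontal line the median. The erlotinib points of KDM6A, KDM6B, KDM5B and KDM4B lie above all untreated points, and those of EZH2, SUZ12, SUV39H1, SUV39H2, NSD2 and PRMT5 below them.

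Genes of dividing cells fell in the same libraries. All 10 of the proliferation genes MKI67, TOP2A, MCM2, MCM6, PCNA, CCNB1, CDK1, RRM2, TYMS and BIRC5 fell, with a median change of -1.81. Their summed level was 1556 to 1757 TPM in untreated and 369 to 590 TPM in erlotinib libraries. The part of this shift in the falls of EZH2, SUV39H1, SUV39H2, NSD2 and the other members was not tested.

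E2F factors drive many genes of the division cycle, and promoters of members were searched for the E2F letters TTTGGCGC, TTTCCCGC, TTTGGCGG and TTTCGCGC on either strand. RefSeq windows from 250 bases before to 50 after the start site (GRCh38.p14) matched 63 of the 71 members. Of these 63, 7 held at least 1 match (11.1%), and 4.60% of 15316 protein-coding promoters of the same length did. The 7 were EZH2, SUZ12 and NSD2, which fell, EZH1 and KDM5A, which rose, and KDM1B and PRDM7, which did not pass. Among members with a window, 3 of 21 that fell and 2 of 21 that rose held a match. The stretches around it are shown for the 5 members that rose or fell, since both catalytic subunits of PRC2, which moved in opposite directions, hold it. Each runs 5′ to 3′ on the strand of the gene, with the match in capitals.
EZH2 (chr7:148884283-148884350, minus strand, match just after the start site): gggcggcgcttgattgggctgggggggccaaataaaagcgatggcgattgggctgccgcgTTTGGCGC
SUZ12 (chr17:31936758-31936855, plus strand): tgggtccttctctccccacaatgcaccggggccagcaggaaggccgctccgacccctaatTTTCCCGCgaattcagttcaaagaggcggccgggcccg
NSD2 (chr4:1871256-1871353, plus strand): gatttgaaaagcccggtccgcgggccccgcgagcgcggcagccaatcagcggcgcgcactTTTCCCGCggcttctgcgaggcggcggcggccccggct
EZH1 (chr17:42745122-42745219, minus strand): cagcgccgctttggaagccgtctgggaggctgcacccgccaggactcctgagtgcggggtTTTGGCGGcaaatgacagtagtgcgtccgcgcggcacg
KDM5A (chr12:389410-389507, minus strand): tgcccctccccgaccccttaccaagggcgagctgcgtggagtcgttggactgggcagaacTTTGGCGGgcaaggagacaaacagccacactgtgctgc
The cell-cycle homology region (CHR, TTTGAA or TTCGAA on either strand) was found in 9 of 63 members' windows (14.3%) and in 13.4% of protein-coding promoters. It occurred in 3 of 21 members that fell (NSD2, SUV39H2 and SUZ12) and 3 of 21 that rose (KDM2A, PRDM1 and PRDM2).

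Of the H3K36 enzymes, the NSD genes fell and SETD2, the enzyme that trimethylates H3K36, did not pass. NSD2 (MMSET), which dimethylates H3K36, was the most abundant of its family in untreated cells. It ranged from 83.8 to 123 TPM (median 97.0) untreated and from 35.9 to 46.2 TPM (median 42.4) with erlotinib, and fell by 1.21 ± 0.06 on the log2 scale (adjusted p = 6.78e-10). NSD3 fell by 0.20 ± 0.05 in 10 of 10 lines (adjusted p = 0.0023) and NSD1 by 0.15 ± 0.04 in 9 of 10 lines (adjusted p = 0.0058). The NSD1 call was lost over protein-coding transcripts alone (-0.05, adjusted p = 0.26) and after quantile normalization (-0.07, adjusted p = 0.13). SETD2 had a change of 0.01 ± 0.06 (adjusted p = 0.92) and ASH1L one of 0.08 ± 0.07 (adjusted p = 0.31). DOT1L, the H3K79 methyltransferase, fell by 0.22 ± 0.08 in 8 of 10 lines (adjusted p = 0.024). Its adjusted p was 0.052 without Y726F, 0.054 without Y821F and 0.056 with no filter on low values.

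Of the 7 KMT2 and SETD1 genes, which methylate H3K4 or belong to that family, KMT2A, KMT2C, KMT2E and SETD1B rose by 0.32, 0.29, 0.55 and 0.20, and KMT2B fell by 0.14, a call that was lost after median centring. KMT2C has near-identical pseudogene copies, so its level is uncertain. KMT2A had a median of 13.8 TPM untreated and 17.9 TPM with erlotinib, and was higher with the drug in 9 of 10 lines (adjusted p = 0.0015). KMT2D was at 42.8 to 84.9 TPM untreated and 55.5 to 73.0 TPM with erlotinib. Its change of 0.17 ± 0.08 did not pass (adjusted p = 0.092). Without the PAR line the KMT2D change was 0.25 (adjusted p = 0.00046), and PAR was the 1 line in which it went down. It also passed after median centring (0.21, adjusted p = 0.022), after quantile normalization (0.26, adjusted p = 0.0084) and with library quality weights (0.22, adjusted p = 0.0066). SETD1A changed by -0.02 ± 0.06 (adjusted p = 0.81). The list held 9 other subunits of KMT2 and SETD1 complexes, some shared by all of them and some particular to 1 or a few. Of these subunits, 5 fell and 1 rose (36.3% and 35.5% of all genes tested). WDR5, a core subunit, fell by 0.91 and RBBP5 by 0.21, while DPY30 (-0.06) and ASH2L (0.11) did not pass.

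Of the arginine methyltransferases, PRMT1, PRMT3, PRMT5, PRMT6 and PRMT7 fell. PRMT1, which makes most asymmetric dimethylarginine and was the member with the highest mean level, ranged from 179 to 218 TPM untreated and from 110 to 133 TPM with erlotinib, without overlap (-0.64 ± 0.03, adjusted p = 2.23e-10). PRMT5, which makes symmetric dimethylarginine, ranged from 67.2 to 85.5 TPM and from 40.5 to 56.5 TPM (-0.69 ± 0.05, adjusted p = 1.06e-08). All 4 PRMT5 partners fell (36.3% of all genes tested fell), among them WDR77, its obligate cofactor, by 1.18. PRMT3, which methylates a ribosomal protein, fell from a median of 22.4 to 8.60 TPM (-1.26 ± 0.06, adjusted p = 2.95e-10), and the groups did not overlap. PRMT6 and PRMT7 fell by 0.24 and 0.40. PRMT2 was the member that rose, by 0.20 ± 0.04 (adjusted p = 0.00079), from a median of 89.9 to 104 TPM.

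The PRDM genes encode zinc-finger proteins with a SET-like domain, of which several have no known enzyme activity. Of 15 genes, 9 were at 1 TPM or more, 2 rose and 3 fell (35.5% and 36.3% of all genes tested). PRDM1 (Blimp-1), a transcriptional repressor known from plasma cells, ranged from 0.44 to 2.31 TPM untreated and from 1.78 to 4.28 TPM with erlotinib, and rose by 0.67 ± 0.17 in 9 of 10 lines (adjusted p = 0.0032). PRDM11 fell by 0.52 ± 0.08 in 10 of 10 lines (adjusted p = 3.75e-05). PRDM7 and PRDM9 are near-identical and cannot be separated with confidence. Of PRDM7 TPM only 0.16% came from transcripts annotated as protein coding and 85.7% from 1 processed transcript. Its level and changes are thus almost all those of transcripts not annotated as coding. Of the other SETD genes, SETD7 rose by 0.21 and SETD3, SETD4, SETD6 and SETD9 fell by 0.27, 0.21, 0.46 and 0.30. Only 25.2% of SETD6 TPM and 24.9% of SETD9 TPM came from transcripts annotated as protein coding. SETD5, with a mean of 73.6 TPM and 1 of the 5 highest members, changed by -0.07 ± 0.06 (adjusted p = 0.26).

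The genes that write, erase or read histone methylation under other names were set beside the members. Of 39 tested, 6 rose and 27 fell, with a median change of -0.27. Among all genes tested 35.5% rose and 36.3% fell, with a median change of 0.01. The list was chosen with earlier results of these data known, so no conclusion is drawn from this contrast. KMT5A, which makes H4K20 monomethylation in dividing cells, fell by 1.20, while KMT5B and KMT5C rose by 0.24 and 0.20. All 3 HP1 genes, which read H3K9 methylation, fell, by 0.17 (CBX1), 0.57 (CBX3) and 0.59 (CBX5). JMJD1C, a relative of KDM3, rose by 0.89, and 6 of the 7 demethylases outside the KDM names fell.

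AF154 added to erlotinib was compared with erlotinib alone in the 8 lines with a kinase-competent AXL, that is without KO and KD. In the transduced lines among them only a minority of cells express AXL by the study's account. Its part in the size of these changes was not tested. Of all genes tested 0.411% rose and 0.0638% fell (0.475% in all), and of the 60 members 1 rose and 0 fell by limma. At an unadjusted p under 0.05 there were 7 members, SUV39H2, NSD2, EZH2, SUZ12 and PRDM7 higher and EZH1 and KDM5C lower. The share of all genes at this unadjusted threshold was not computed, so no conclusion is drawn from this count. The member that passed was SUV39H2. With erlotinib it was at 8.43 TPM in PAR, 7.98 in WT, 10.9 in Y634F, 11.6 in Y643F, 11.3 in Y698F, 10.7 in Y726F, 10.4 in Y750F and 10.3 in Y821F. With AF154 the same lines held 11.4, 11.5, 15.5, 12.5, 13.0, 15.6, 13.4 and 12.4 TPM. Every line was higher with the antibody, by 0.10 (Y643F) to 0.50 (Y726F) on the log2 scale. The mean rise was 0.34 ± 0.06, with an adjusted p of 0.049, just under the threshold, and leaving out any 1 of the 8 lines raised it to between 0.076 and 0.13. The KD line, which was not in this test, went from 7.76 to 9.01 TPM (0.19). Without the line as a block the adjusted p was 0.18, and over protein-coding transcripts alone 0.23.

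The remaining members that fell with erlotinib had small changes that did not pass. NSD2 was 0.27 ± 0.08 higher with AF154 (adjusted p = 0.15; 7 of 8 lines), EZH2 0.22 ± 0.08 (adjusted p = 0.19; 6 of 8 lines) and SUZ12 0.14 ± 0.06 (adjusted p = 0.25; 7 of 8 lines). SUV39H1 was 0.22 ± 0.12 higher (adjusted p = 0.40) in 4 of 8 lines. EZH1 was 0.19 ± 0.07 lower (adjusted p = 0.22; lower in 7 of 8 lines), and the EZH1 share of EZH1 and EZH2 had a median of 53.2% with erlotinib and 48.7% with AF154 in these lines. The members that rose most with erlotinib differed by 0.09 ± 0.05 (KDM6A, adjusted p = 0.45), -0.16 ± 0.12 (KDM6B, adjusted p = 0.52) and 0.01 ± 0.06 (KDM5B, adjusted p = 0.95). In the same 8 lines the summed proliferation genes were at 369 to 590 TPM (median 518) with erlotinib and 554 to 737 TPM (median 647) with AF154, and 5 of the 10 genes rose. The part of this difference in the SUV39H2 value was not tested.

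**Figure D4:**
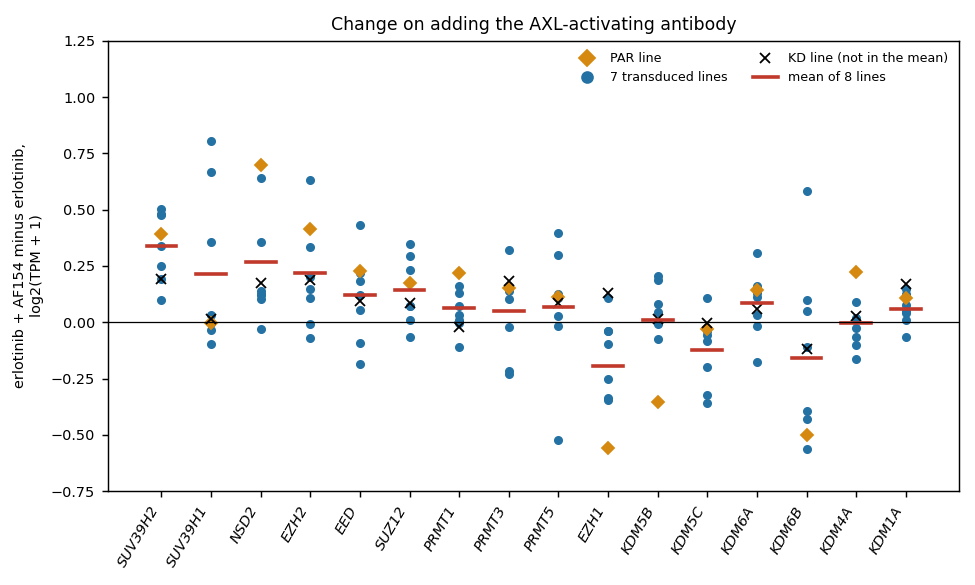
Difference between erlotinib with AF154 and erlotinib alone in each line on the log2(TPM + 1) scale for 16 members; the bar is the mean of 8 lines and the cross the KD line, which the mean leaves out. SUV39H2 is above 0 in all 8 lines, while the points of the other genes shown lie on either side of 0.

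Erlotinib with AF154 was also set against no treatment in the 8 lines. Among all genes 31.1% rose and 31.6% fell (62.7% in all), and of the members 20 rose and 15 fell. This comparison shares its untreated libraries with the erlotinib comparison, so its values are given only side by side. KDM6A changed by 1.53 with both agents (1.48 with erlotinib in 10 lines), KDM5B by 1.05 (1.07), EZH2 by -0.77 (-1.02), NSD2 by -0.95 (-1.21) and SUV39H2 by -1.14 (-1.48). KDM1A was 0.11 higher with both agents, at an adjusted p of 0.0498.

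The PAR line was set against the 9 lines derived from KO cells. No test was made, since each treatment has 1 PAR library. PAR was above every other line in all 3 treatments for 3 members (7.2% of all genes) and below every other line for 5 members (9.81% of all genes), so the members' 5.0% and 8.33% were near the background. KDM1A was at 105, 103 and 111 TPM in PAR (untreated, erlotinib, erlotinib with AF154), while the other lines held 57.3 to 70.3, 61.9 to 73.4 and 65.7 to 76.0 TPM. EED was at 19.1, 10.9 and 13.0 TPM in PAR against 31.3 to 37.6, 17.0 to 23.5 and 20.5 to 23.7 TPM. KDM4A was at 29.5, 32.2 and 37.7 TPM against 37.0 to 42.9, 50.1 to 56.8 and 47.9 to 58.1 TPM. These 3 members had the widest gaps to the nearest line. PRDM11, SUV39H1 and PRMT6 were also lower in PAR and PRMT1 and KMT2C higher. After median centring PRMT6 was no longer below all other lines, and KDM6A was.

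**Figure D5:**
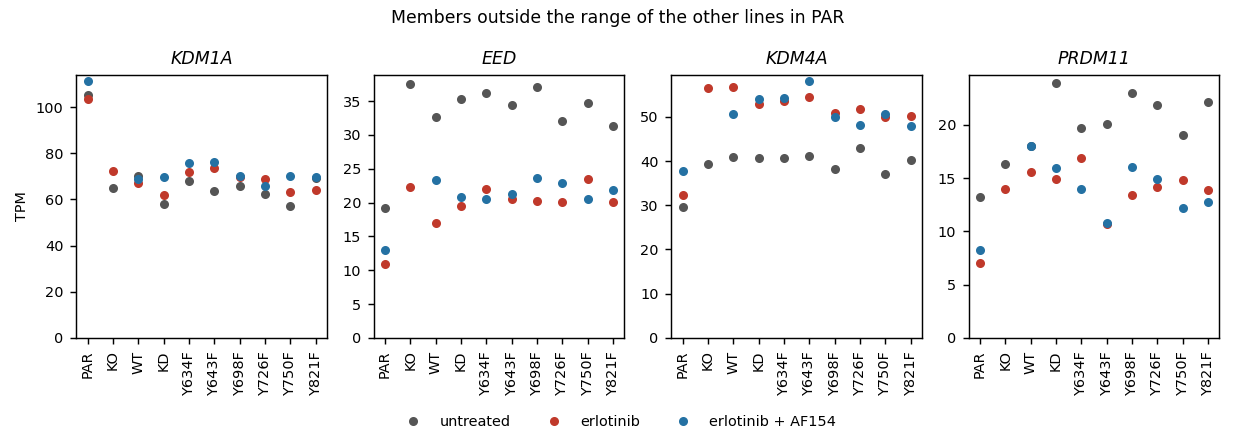
TPM of KDM1A, EED, KDM4A and PRDM11 in each line, coloured by treatment. PAR lies above the other lines for KDM1A and below them for EED, KDM4A and PRDM11 in all 3 treatments.

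PAR stood apart more often within single treatments. Untreated, it had 27 of 60 members (45%) above every other line (29.3% of all genes) and 7 (11.7%) below (21.0% of all genes). With erlotinib 5 members (8.33%) were above (14.4% of all genes) and 21 (35%) below (33.8% of all genes). With erlotinib and AF154 6 (10%) were above (18.3% of all genes) and 21 (35%) below (29.9% of all genes). Among the 27 above in untreated cells were EHMT1 (109 TPM against 45.9 to 61.4), KMT2C (23.7 against 8.07 to 12.1), KMT2D, NSD2 and EZH2. The change of PAR with erlotinib is taken between its untreated and its erlotinib library, and the part of either was not tested. Of the 22 members that rose with erlotinib 14 had their smallest change in PAR (31.5% of all genes that rose), and of the 23 that fell 8 had their largest change in PAR (32.4% of all genes that fell). Without PAR, 23 members rose and 21 fell.

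The KO line was compared with the 8 transduced lines in untreated and erlotinib-treated cells. KO was above all of them in both for SETD1A (2.14% of all genes) and below them in both for EHMT1 (3.87% of all genes). SETD1A was at 32.2 and 33.8 TPM in KO, and its highest values in the transduced lines were 31.6 and 30.4 TPM. EHMT1 was at 45.9 and 48.2 TPM in KO, with lowest values of 47.5 and 52.2 TPM in the transduced lines. The gaps were thus small beside the spread of the transduced lines.

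The KD line was compared with the 7 kinase-competent transduced lines. It was above them in all 3 treatments for 0 members (0.128% of all genes) and below them for SUV39H2 (1.2% of all genes). SUV39H2 was at 25.5, 7.76 and 9.01 TPM in KD, with ranges of 26.1 to 34.0, 7.98 to 11.6 and 11.5 to 15.6 TPM in the other lines. The separation was widest with erlotinib and AF154.

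Among the 11 members under 1 TPM, KDM4F and PRDM13 were listed at 0 in every library, KDM4E and PRMT8 had means of 0.002 and 0.006 TPM, and KDM4D, PRDM6, PRDM9, PRDM12, PRDM14 and PRDM16 had means from 0.075 to 0.79 TPM.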

How the data were processed

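The authors deposited a table of TPM values per transcript, 1 row per library. The submitters' processing notes name kallisto and GRCh38; the annotation release and the kallisto version are not given in the sources used here. Of 188753 transcripts, 169797 matched GENCODE release 29 by identifier and were summed to 35579 genes, which held 97.0% to 97.4% of each library's TPM. Counting depth cannot be had from TPM. Genes whose level averaged 1 TPM or more across the 29 libraries were compared as log2(TPM + 1) with limma 3.58.1 in R 4.3.3 (linear model with the line as block, empirical Bayes with a trend), and p-values were adjusted by Benjamini-Hochberg over all 14111 genes at a threshold of 0.05. A fold is on the log2(TPM + 1) scale and understates changes of low genes. All lines are derivatives of 1 cell line, so p-values measure only the spread between these samples. No library pair held identical values. The block is the cell line named in the labels. Single lines were set against the others without a test, by asking whether their value lay outside the others' range in every treatment.

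On simulated data with 200 genes changed by 0.5 on the log2 scale among 14111, 142 were recovered for erlotinib against untreated, 144 for AF154 with erlotinib against erlotinib and 120 for AF154 with erlotinib against untreated, with 5, 13 and 6 unchanged genes called. Members and lists were chosen with earlier results of these data known. Named members were the 12 largest changes per comparison among those that passed and went the same way in every line. Also named were 5 with the highest mean, those furthest outside the other lines in PAR, KO and KD, and a list of well-studied enzymes. Genes given beside them were chosen after their values were seen. Alternatives were a pseudocount of 0.1, a minimum of 10 TPM or none, median centring, quantile normalization, no block, library quality weights, protein-coding transcripts only, leaving out each line, and including KD. Figures were drawn with matplotlib 3.10.9. The result of 1 cell type marker is not reported here.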

Additional observations from a re-analysis of the deposited data

Results flagged for a closer look

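Among 51 sets of line differences examined (36 genes for erlotinib against untreated and 15 for AF154), 2 held a line far from the others, and chance alone flags about 1 in 20. Both were the PAR line under erlotinib. EHMT1 changed by -0.81 in PAR on the log2(TPM + 1) scale and by -0.06 to 0.46 in the other 9 lines. KMT2D changed by -0.60 in PAR and by 0.03 to 0.49 in the other 9 lines. In the untreated PAR library 29.3% of all genes tested lay above every other line, and in its erlotinib library 33.8% lay below every other line. The part of either library in these values was not tested.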

How the results depend on the processing

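The number of members that changed with erlotinib was 19 to 24 higher and 17 to 24 lower over all alternatives, and for erlotinib with AF154 against untreated 16 to 25 higher and 13 to 19 lower. Each of these low ends came with the minimum of 10 TPM, which left 44 members to test in place of 60. The 1 member higher with AF154 against erlotinib went to 0 with no filter on low values, after median centring, after quantile normalization, with no replicate block, over protein-coding transcripts only, with the kinase-dead line included, and when any 1 line was left out (0 to 0). It was kept with a pseudocount of 0.1, a minimum of 10 TPM and library quality weights. Without the block, erlotinib moved 21 members higher and 22 lower. Median centring put 5 members of PAR above the other lines (8.55% of all genes), against 3, and 5 below as before (8.33% of all genes), with KDM6A in place of PRMT6. For 36 named members under erlotinib, 17 alternative values changed sign, 5 lost and 7 gained the threshold, and the other 614 kept both. Values of changes under erlotinib that turned in sign were KDM1A -0.000276 and SETD2 -0.000580 over protein-coding transcripts, KDM4C 0.021 and SETD1A 0.021 after median centring, and SETD1A 0.022 and SETD5 0.018 after quantile normalization. Leaving out a line gave EHMT1 -0.021 to 0.12, KDM4C -0.069 to 0.012, SETD1A -0.049 to 0.020 and SETD2 -0.0151 to 0.056. For KDM5B with AF154 the values were -0.013 after median centring, -0.00445 after quantile normalization and -0.21 over protein-coding transcripts, and leaving out a line gave -0.018 to 0.062. The causes were not tested. Depth is unknown, and members near 1 TPM are the least certain.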
